A study of Rattus norvegicus with 6 samples.

Results

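Heparan sulfate is built and edited by a set of Golgi and extracellular enzymes, and 10 of their genes were chosen here: Ext1, Ndst1, Ndst3, Hs6st1, Hs6st2, Hs6st3, Hs3st1, Hs3st2, Hs3st5 and Sulf1. They were followed in rat primary motor neuron cultures after camptothecin or its solvent. A gene was measured where the platform annotation gave 1 symbol, that of the gene, to a transcript cluster, which is the array's set of probes along a transcript. Of the 10 genes, 7 were measured, each by 1 cluster, out of 14506 genes measured this way. Hs6st2, Hs6st3 and Ndst3 had no such cluster and are not analysed here. The 10 genes were proposed with the difference between camptothecin and DMSO in view, so for them that difference is described and not tested.

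The cultures came from rat embryos of embryonic day 13.5 and were grown for 2 days. One group received 1 microM camptothecin, an alkaloid poison that holds topoisomerase 1 in its DNA-bound form, and the other an equivalent volume of DMSO, each for 2 h at 37C. Each group had 3 arrays, named replicates 1 to 3. The labels name them biological replicates but do not say whether they came from separate dissections, so errors and p-values reflect only how these samples spread, which may be in part technical. The strain is not given in the sources used here. Array medians were 6.31 to 6.33 on the log2 scale with camptothecin and 6.22 to 6.28 with DMSO. Across the 29214 clusters, arrays correlated at 0.992 to 0.995 within a group and at 0.983 to 0.985 between groups (Pearson's r). The fit across all clusters (limma, Benjamini-Hochberg adjusted p under 0.05) called 2937 clusters higher and 2311 lower. The higher share of the calls was 56% as deposited, 37.2% with arrays centred on their medians and 5.58% with arrays centred on ribosomal protein genes. As deposited, 31 of 57 measured ribosomal protein genes were called higher and 0 lower, with a median difference of 0.25. Centring on them therefore lowers every difference, and it moves the median of all clusters from 0.07 to -0.22. Top1, the gene of the drug's target, fell by 0.64 on the log2 scale (SE 0.08, n = 3 per group, limma adjusted p = 0.00254).

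Heparan sulfate is a long sugar chain carried by core proteins at the cell surface and in the matrix. Chain growth starts on a linkage sugar sequence and is carried out by the exostosins. The N-deacetylase/N-sulfotransferases then replace acetyl groups by sulfate, and further sulfotransferases add sulfate at defined oxygen positions. The resulting patterns bind growth factors, morphogens and axon guidance proteins. In the developing spinal cord such chains are known for their part in FGF signalling and in the guidance of axons.

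Among the 7 measured genes, the largest differences were in the chain polymerase Ext1 and the 3-O-sulfotransferase Hs3st5, which were 2.6-fold and 2.77-fold lower with camptothecin. Hs3st1, Hs3st2 and Hs6st1 were 1.52-fold, 1.49-fold and 1.38-fold lower. Ndst1 and Sulf1 had overlapping groups. In the limma fit 3 of the 7 genes were called lower and 0 higher, where 9.35% of all 14506 genes were called lower and 11.3% higher. At an unadjusted p under 0.05 the counts were 5 lower and 0 higher. In 5 of the 7 genes all camptothecin arrays lay below all DMSO arrays, which was so for 15.5% of all genes. The rule of choice used this contrast, so nothing is read from these shares. The median difference over the 7 genes was -0.57 on the log2 scale, beside 0.06 over all genes. In bulk RNA, fewer cells of a type and less RNA per cell cannot be told apart.

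**Figure D1:**
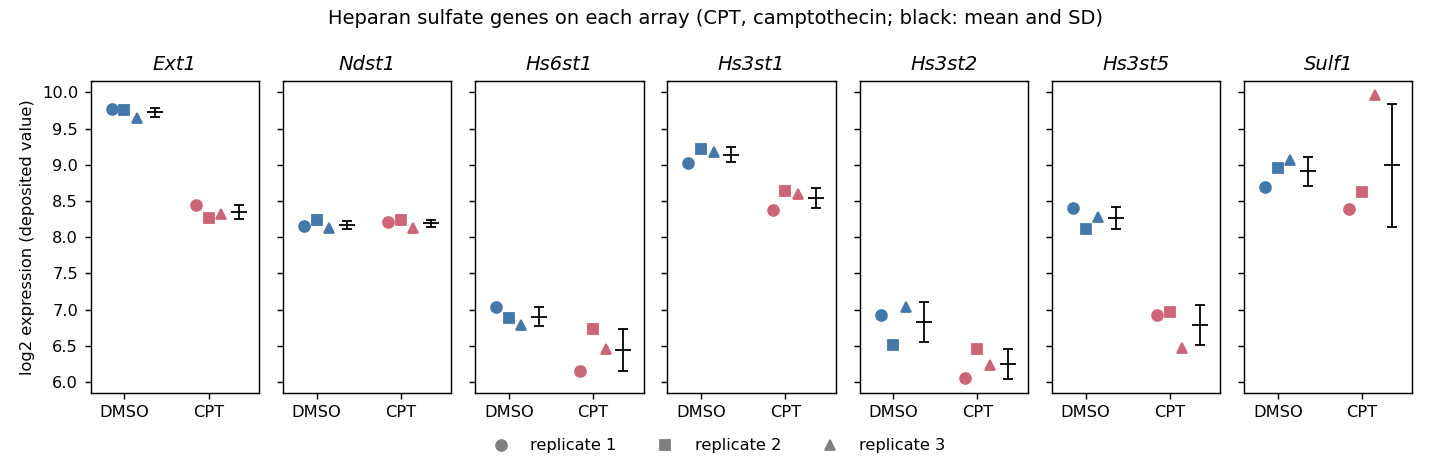
Deposited log2 expression of the 7 measured genes on each of the 6 arrays. Each panel is a gene, blue marks are DMSO and red marks camptothecin arrays, symbols give the replicate number, and the black mark and bar are the mean and SD of 3 arrays. Ext1, Hs3st1 and Hs3st5 show a wide gap between the groups, Hs3st2 and Hs6st1 a narrow one, Ndst1 none, and Sulf1 has a single camptothecin array at 9.96 above the rest.

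Ext1 encodes the glycosyltransferase that lengthens the chain in a complex with Ext2. Its cluster (10903709) read 9.77, 9.75 and 9.65 in the DMSO arrays and 8.45, 8.26 and 8.32 in the camptothecin arrays, replicates 1 to 3. Every camptothecin array lay at least 1.20 below every DMSO array, while the arrays of a group lay within 0.185 of each other. The mean was 9.73 ± 0.06 (SD, n = 3) with DMSO and 8.34 ± 0.09 (SD, n = 3) with camptothecin. The log2 difference was -1.38 (SE 0.08), so that 38.4% of the DMSO level remained. With 1 array left out it was -1.43 to -1.34.

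Ndst1 encodes the enzyme that removes acetyl groups from glucosamine and puts sulfate in their place, the step on which later sulfation builds. Its cluster (10804582) read 8.15, 8.23 and 8.12 with DMSO and 8.21, 8.23 and 8.13 with camptothecin. The groups overlapped over nearly their whole range. Camptothecin minus DMSO came to 0.02 on the log2 scale (SE 0.07), with a 95% interval from -0.14 to 0.18 by the limma fit. Its sign turned to -0.05 with arrays centred on their medians and to -0.26 with arrays centred on ribosomal protein genes.

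Hs6st1 encodes a 6-O-sulfotransferase, which adds sulfate to the sixth carbon's oxygen of glucosamine, a mark used in FGF binding. Its cluster (10922489) read 7.04, 6.88 and 6.79 with DMSO and 6.15, 6.73 and 6.45 with camptothecin. The groups did not overlap, but the highest camptothecin array lay only 0.065 below the lowest DMSO array. The camptothecin arrays spread over 0.58 and the DMSO arrays over 0.242. Hs6st1 differed by -0.46 on the log2 scale (SE 0.15) and was not called in the limma fit. Without camptothecin replicate 1, the lowest array, it was -0.31.

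The 3-O-sulfotransferases add a rare sulfate late in chain editing, and 3 of them were measured here. Hs3st1, whose product is known for making antithrombin binding sites, has cluster 10773180. It read 9.02, 9.22 and 9.18 with DMSO and 8.38, 8.63 and 8.60 with camptothecin. The groups were 0.397 apart at their nearest arrays, more than the spread within either. The log2 difference was -0.60 (SE 0.09), which leaves 65.8% of the DMSO level.

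Hs3st2, an isoform known from the nervous system, has cluster 10710575, and 55.2% of all clusters had a mean below that of Hs3st2. It read 6.93, 6.51 and 7.04 with DMSO and 6.05, 6.46 and 6.24 with camptothecin. Camptothecin replicate 2 and DMSO replicate 2 were only 0.045 apart, so the separation of the groups rests on a narrow margin. Hs3st2 differed by -0.57 on the log2 scale (SE 0.16) and was not called in the limma fit. With 1 array left out it was -0.73 to -0.47.

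Hs3st5, whose product is known for making both antithrombin binding sites and sites bound by a herpesvirus envelope protein, has cluster 10830300. It read 8.40, 8.11 and 8.28 with DMSO and 6.93, 6.97 and 6.47 with camptothecin. All camptothecin arrays lay at least 1.14 below all DMSO arrays. Camptothecin replicate 3 was the lowest, 0.46 below the next array. The means were 8.26 ± 0.14 (SD, n = 3) and 6.79 ± 0.28 (SD, n = 3). The log2 difference was -1.47 (SE 0.15), or 36.1% of the DMSO level, and -1.56 to -1.31 with 1 array left out.

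Camptothecin replicate 1 was the lowest of the 3 treated arrays for Hs3st1, Hs3st2 and Hs6st1, but not for Ext1 or Hs3st5. The 5 genes with separated groups therefore did not share a single lowest array.

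The promoters of the 3-O-sulfotransferases are shown because these isoforms carry out the same step and all had camptothecin arrays below the DMSO arrays. Of the 10 genes, 7 matched the RefSeq promoter table of the rat assembly GRCr8. Each sequence is the 200 bases before the annotated start, 5′ to 3′, with capitals marking GGGCGG (a GC box) and TGACGTCA (a cAMP response element), searched on both strands and not overlapping each other.
Hs3st1 promoter, chr14:75398773-75398972, plus strand: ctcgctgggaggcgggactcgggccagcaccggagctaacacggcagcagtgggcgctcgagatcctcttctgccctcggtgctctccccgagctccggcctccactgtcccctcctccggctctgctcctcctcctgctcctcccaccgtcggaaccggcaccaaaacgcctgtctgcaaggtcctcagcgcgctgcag
Hs3st2 promoter, chr1:185387263-185387462, plus strand: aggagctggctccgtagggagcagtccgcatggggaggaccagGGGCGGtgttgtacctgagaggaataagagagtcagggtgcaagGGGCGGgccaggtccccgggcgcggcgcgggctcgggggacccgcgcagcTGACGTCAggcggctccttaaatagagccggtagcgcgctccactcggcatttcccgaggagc
Hs3st5 promoter, chr20:41661585-41661784, plus strand: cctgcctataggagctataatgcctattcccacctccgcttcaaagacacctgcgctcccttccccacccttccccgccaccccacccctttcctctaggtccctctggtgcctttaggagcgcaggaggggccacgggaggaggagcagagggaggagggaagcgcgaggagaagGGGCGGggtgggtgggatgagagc

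The Hs3st2 promoter held TGACGTCA 63 bases before the start, a motif found in the 250 bases before the start of 1.59% of 33469 rat promoters. It also held 3 GC boxes in those 250 bases, at 217, 157 and 113 bases before the start, and Hs3st5 held 1 at 24 bases. GGGCGG occurred in 30.5% of all promoters in that window. In the Hs3st1 window neither motif was found. The motifs were picked after the sequences were seen, and a match describes letters, not a bound site. The share of G and C in the 250 bases was 67.6% for Hs3st1, 67.6% for Hs3st2 and 64.4% for Hs3st5, beside a median of 51.2% over all promoters. Hs6st1, with its groups just apart, had 75.6%, and Ndst1, with overlapping groups, 54.8%. In that window Hs6st1 held 1 GC box, at 229 bases, and Ndst1 held 2, at 92 and 56 bases.

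Sulf1 encodes an extracellular sulfatase that takes 6-O-sulfate off finished chains. Its cluster (10874981) read 8.69, 8.96 and 9.07 with DMSO and 8.39, 8.62 and 9.96 with camptothecin. Camptothecin replicates 1 and 2 lay below every DMSO array, and replicate 3 lay 0.885 above the highest DMSO array. The log2 difference was 0.08 (SE 0.38), with a 95% interval from -0.82 to 0.99 by the limma fit. Without camptothecin replicate 3 it was -0.40. Its sign also turned without DMSO replicate 1 (-0.025) and with arrays centred on ribosomal protein genes (-0.20), so these data give Sulf1 no settled direction.

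Camptothecin replicate 3 was also far above the other 5 arrays for a few other genes, named here after their values were seen. Among all 14506 genes, Sulf1 had the second largest margin of that array over the other 5, after the fatty acid transporter Cd36 (1.08) and ahead of the progenitor membrane protein Prom1 (0.806) and the matrix proteoglycan Dcn (0.805). Dcn read 5.91, 6.73 and 6.26 with DMSO and 5.83, 5.54 and 7.53 with camptothecin. Margins over 0.5 were found for 17 genes in that array, for 29 in camptothecin replicate 1 and for 2 to 7 in the other arrays. Dcn is in the list of 8 fibroblast and meningeal markers, of which 0 rose and 1 fell (Fn1, -0.36, SE 0.07, limma adjusted p = 0.0157) and, at an unadjusted p under 0.05, 0 were higher and 2 lower. Among these markers, camptothecin replicate 3 was the highest array only for Dcn. With camptothecin, replicates 1 to 3, Col1a1 read 7.21, 7.22 and 7.21 and Col3a1 6.12, 6.29 and 6.15. The summed unlogged level of these markers was 1010 to 1200 with camptothecin and 1130 to 1160 with DMSO. Their part in the Sulf1 value was not tested.

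The 7 genes have longer genomic spans than most. The median annotated span in GRCr8 was 121 kb for them and 18 kb for all genes. The rule did not name span, but the genes were proposed with this contrast in view, and its calls went with span. Of all genes of 100 kb or more 34.9% were called lower and 1.84% higher, beside 6.13% and 12.5% of shorter ones. The spans of the 7 genes are therefore described only. In order of span, the log2 difference was -0.60 for Hs3st1 (31.5 kb), -0.46 for Hs6st1 (39.2 kb), 0.02 for Ndst1 (62.7 kb), -0.57 for Hs3st2 (121 kb), 0.08 for Sulf1 (163 kb), -1.38 for Ext1 (279 kb) and -1.47 for Hs3st5 (311 kb). The pair with the longest spans had the largest differences, while the others followed no order by span.

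Genes of similar span are set beside these values. The listed genes were chosen with this contrast in view, so nothing is read from their ranks. Of the 375 genes of 300 kb or more, 40.3% were called lower, their median difference was -0.20, and Hs3st5 had the lowest of all. Of the 1257 genes from 100 to 300 kb, 33.3% were called lower and the median was -0.12. In that class 2.07% of genes had a lower value than Ext1, 19.7% a lower one than Hs3st2 and 82.3% a lower one than Sulf1. Of the 3516 genes from 30 to 100 kb, 16.2% were called lower and the median was 0.00252. There 5.4% of genes lay below Hs3st1, 9.33% below Hs6st1 and 53.5% below Ndst1. The spans of the unmeasured genes are 295 kb for Hs6st2, 719 kb for Hs6st3 and 166 kb for Ndst3.

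**Figure D2:**
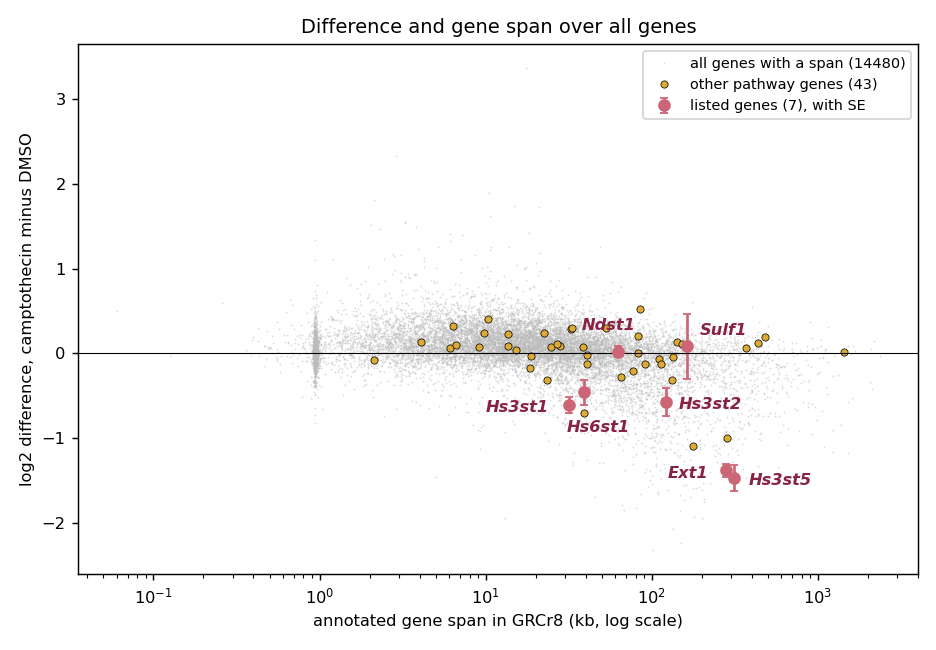
Log2 difference, camptothecin minus DMSO (vertical axis), against annotated gene span in kb on a log axis, for all genes with a span (grey), the 43 other measured genes of the pathway (yellow) and the 7 listed genes (red, with limma's SE). Ext1 and Hs3st5 lie at the lower edge of the grey points near 300 kb, while Sulf1 at 163 kb and the 4 core protein genes beyond 300 kb lie near 0.

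The rest of the pathway was described through 5 lists of 62 genes, of which 43 were measured. Of these 4 fell and 4 rose in the limma fit, or 9.3% each, close to the 9.35% and 11.3% of all genes. At an unadjusted p under 0.05 the counts were 7 lower and 9 higher. The median difference was 0.07, beside 0.06 over all genes. The other chain-building and chain-editing enzymes, the nearest relatives of the 7 genes, gave 0 calls in 9 measured members by limma (1 higher and 1 lower at an unadjusted p under 0.05).

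Several of those enzymes are direct counterparts of the 7 genes and are named for that reason, outside the naming rule and after their values were seen. Ext2, the partner of Ext1 in the polymerase, spans 133 kb and differed by -0.32 (SE 0.09, limma adjusted p = 0.0598). Ndst2, the isoform of Ndst1 and the largest difference in the list, was at 0.40 (SE 0.13, limma adjusted p = 0.0789, and 0.0283 to 0.424 over its alternatives). Sulf2, the relative of Sulf1, was at 0.21 (SE 0.11), Hs3st6 at 0.06 (SE 0.09) and the 2-O-sulfotransferase Hs2st1 at -0.04 (SE 0.09). Hs3st6 was dim, with a mean of 5.60 with DMSO and 5.67 with camptothecin, below the median of all cluster means (6.28). None of these counterparts passed the test on the deposited values, which does not show that they were unchanged. Ndst2 passed without dim clusters (limma adjusted p = 0.0283) and with trend and robust (0.0403). Of these counterparts only Ndst2 was followed by name across the alternatives, so others may have passed in some. Of the pathway genes outside the 7, 5 were called lower and 6 higher without dim clusters. With quantile normalization again 6 were called lower and 3 higher.

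Chain initiation and donor supply held 3 of the 4 falls outside the 7 genes. Xylt1 encodes the xylosyltransferase that starts both heparan and chondroitin sulfate chains. It read 7.41, 7.43 and 7.58 with DMSO and 6.55, 6.26 and 6.61 with camptothecin, with no overlap, and fell by 1.00 on the log2 scale (SE 0.11, n = 3 per group, limma adjusted p = 0.00138). It was the only call among the 7 linkage region enzymes, and its shorter relative Xylt2 (13.6 kb, against 283 kb for Xylt1) was at 0.09 (SE 0.08). Xylt2 was dim, with a mean of 5.55 with DMSO and 5.64 with camptothecin, so it is a weak contrast to Xylt1.

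Slc35a3, a Golgi carrier for the glucosamine donor, fell by 0.70 (SE 0.08, limma adjusted p = 0.0017), from 7.25 ± 0.08 to 6.56 ± 0.09 (SD, n = 3). Ugdh, which makes the glucuronic acid donor, fell by 0.31 (SE 0.08, limma adjusted p = 0.0313), a call lost in 6 of 13 alternatives. Papss2, a synthase of the sulfate donor PAPS, rose by 0.53 (SE 0.09, limma adjusted p = 0.0103). That call was kept in 11 of the 12 alternatives run for it and lost with ribosomal centring (0.25, limma adjusted p = 0.0892). Papss2 was dim, with a mean of 4.92 with DMSO and 5.45 with camptothecin, below the median of all cluster means (6.28). Among 10 measured donor supply genes 2 fell and 1 rose.

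The core proteins that carry the chains gave 3 rises and 1 fall in 14 measured genes, or 21.4% and 7.14% beside 11.3% and 9.35% of all genes. Tgfbr3, or betaglycan, a co-receptor for TGF-beta, fell by 1.10 (SE 0.12, limma adjusted p = 0.00129). It read 6.46, 6.91 and 6.69 with DMSO and 5.58, 5.58 and 5.60 with camptothecin, so its treated arrays lay below the median of all cluster means. The neuromuscular junction organiser Agrn rose by 0.30 (SE 0.08, limma adjusted p = 0.0435), and the syndecans Sdc3 and Sdc1 rose by 0.29 (SE 0.07) and 0.24 (SE 0.06). These 3 rises were lost in 8, 8 and 10 of 13 alternatives. With arrays centred on ribosomal protein genes they came to 0.02 and 0.011 for Agrn and Sdc3 and to -0.037 for Sdc1.

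The 7 core protein genes of 100 kb or more held the fall, Tgfbr3 (176 kb), and 0 rises, and the 7 shorter ones held the 3 rises and 0 falls. At 300 kb or more there were 4, Gpc5 (1437 kb, 0.02), Spock1 (480 kb, 0.19), Spock3 (433 kb, 0.12) and Gpc3 (368 kb, 0.07), where values are log2 differences. None of these 4 was called, and they were picked out after their values were seen. Over the whole pathway outside the 7 genes, 2 of 12 genes of 100 kb or more fell (Xylt1 and Tgfbr3) and 0 rose, where 34.9% of all genes of that span were called lower and 1.84% higher. Of the 31 shorter genes 2 fell and 4 rose, beside 6.13% lower and 12.5% higher among all shorter genes.

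Lysosomal breakdown of the chains was covered by only 3 of 9 genes, all dim, with 0 calls by limma (1 higher and 0 lower at an unadjusted p under 0.05). The largest difference was that of the glucuronidase Gusb, 0.23 (SE 0.07, limma adjusted p = 0.0584). With ribosomal centring it was -0.055.

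**Figure D3:**
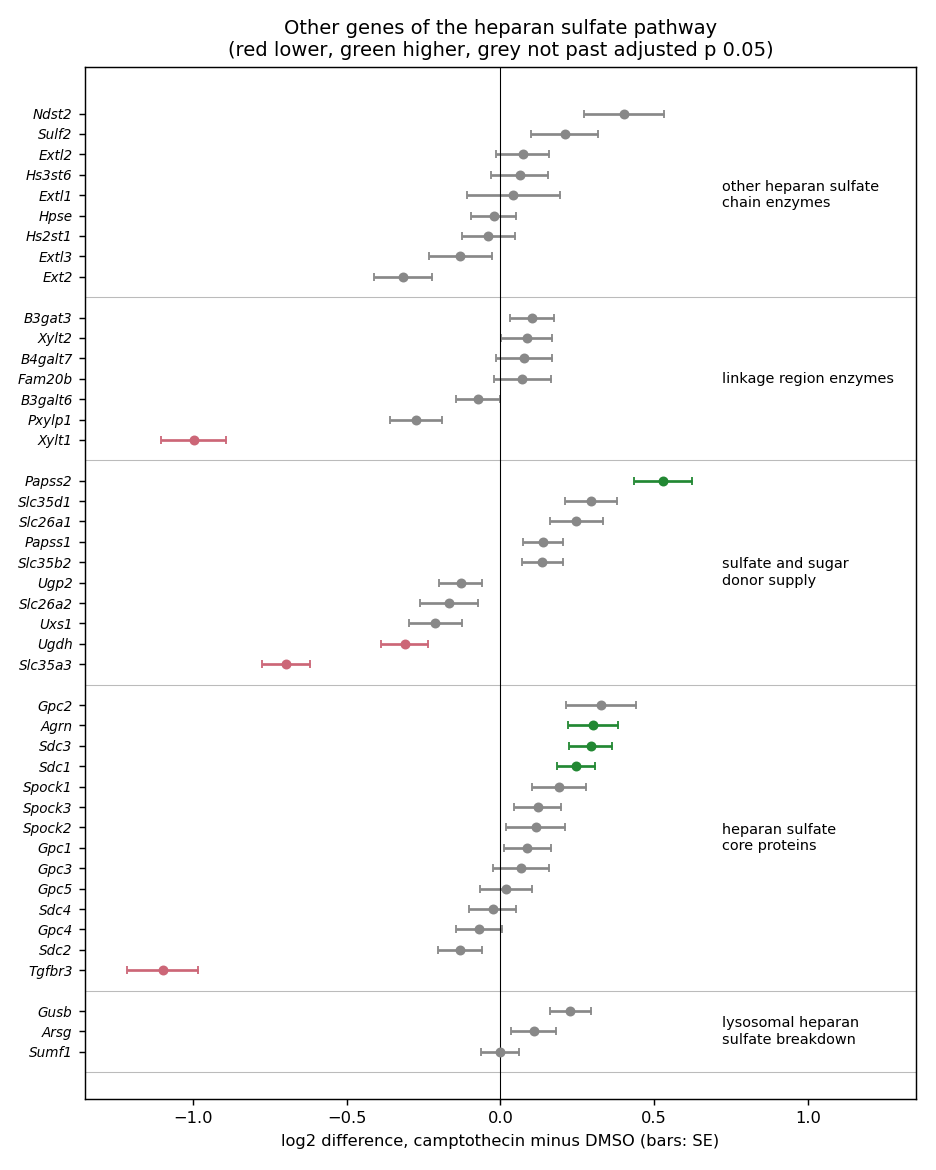
Log2 difference, camptothecin minus DMSO, of the 43 measured pathway genes outside the 7, grouped by role, with limma's SE as bars. Red marks genes that fell, green genes that rose and grey those past no threshold; Tgfbr3, Xylt1 and Slc35a3 stand to the left, and most core protein genes lie between -0.13 and 0.33.

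Chondroitin sulfate chains share the linkage sugars and differ in the repeating sugars, and their enzymes serve as a comparison. Of 13 measured enzymes 4 fell and 0 rose (5 and 1 at an unadjusted p under 0.05), or 30.8% lower beside 9.35% of all genes, and the median difference was -0.06. Of the 4 falls 3 were genes of 100 kb or more, a span at which 34.9% of all genes were called lower. The sulfotransferases Chst11 (-0.46, SE 0.09), Chst15 (-0.42, SE 0.06) and Ust (-0.41, SE 0.10) and the chain enzyme Csgalnact1 (-0.31, SE 0.08) fell, with limma adjusted p from 0.00563 to 0.0378. These 4 falls were each smaller in size than those described for Ext1 and Hs3st5. Those 2 had the largest differences of genes chosen with this contrast in view, so nothing is read from that. The calls of Chst11, Ust and Csgalnact1 were lost in 4, 5 and 7 of 13 alternatives.

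FGF receptors and feedback genes, whose signalling needs heparan sulfate as a cofactor, went both ways. Of 17 measured genes 6 fell and 5 rose, or 35.3% and 29.4% beside 9.35% and 11.3% of all genes, and the median difference was 0.11. The 2 genes of 100 kb or more fell, where 34.9% of all genes of that span were called lower. Of the 15 shorter genes 4 fell and 5 rose, beside 6.13% lower and 12.5% higher among all shorter genes. The Ras pathway inhibitors Spred2 (-1.17, SE 0.13, 102 kb) and Spred1 (-0.98, SE 0.08, 67.1 kb) and the receptor Fgfr2 (-0.97, SE 0.08, 105 kb) fell. Spry1, a feedback inhibitor of receptor kinases, rose by 0.59 (SE 0.08, 5.01 kb). The adjusted p of these 4 genes in the limma fit ran from 0.000333 to 0.00394, and they kept their calls in all 13 alternatives.

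Markers of cell types moved beside these values. Of 8 measured spinal interneuron markers 5 fell and 0 rose (5 and 1 at an unadjusted p under 0.05). This was 62.5% lower, beside 9.35% of all genes. The 5 that fell all spanned 30 to 100 kb, a class in which 16.2% of genes were called lower. The largest falls were those of the glycine transporter Slc6a5 (-1.79, SE 0.11, 65.9 kb), Gad2 (-0.99, SE 0.06, 62.5 kb), Slc17a6 (-0.80, SE 0.08, 40.1 kb) and Gad1 (-0.57, SE 0.07, 40.8 kb). The 3 that did not pass differed upward and had shorter spans, with Lhx5 at 0.26 (8.44 kb), Slc32a1 at 0.23 (4.47 kb) and Lhx1 at 0.10 (6.79 kb). The part of span in these calls was not tested. The list's summed unlogged level was 2960 to 3110 with camptothecin and 4830 to 5160 with DMSO. Of 10 measured motor neuron markers 3 rose and 0 fell (3 and 2 at an unadjusted p under 0.05), or 30% higher beside 11.3% of all genes. The 3 were the filament genes Nefh (0.59, 9.99 kb), Nefm (0.42, 5.31 kb) and Prph (0.31, 4.18 kb). Among those not past the threshold, Slc5a7 (-0.34), Isl1 (-0.27), Lhx4 (-0.20) and Slc18a3 (-0.11) differed downward. Nefl (0.14), Isl2 (0.09) and Lhx3 (0.02) differed upward. The summed level of the list was 3680 to 4100 against 3180 to 3320, but Nefm and Nefl made up 83.4% to 87% of it. The motor neuron factor Isl1 was dim, at 5.77 with DMSO, and Mnx1 and Chat had no cluster with 1 symbol. The values of the 7 genes are those of the whole culture, and brightness of different probe sets does not measure shares of cell types. Progenitor and astroglial markers had 1 fall in 9 (Pax6, -0.58) and oligodendrocyte and Schwann cell markers 1 in 5 (Mbp, -0.48), with 0 rises in either (1 and 0 at an unadjusted p under 0.05). The part of these markers in the differences of the 7 genes was not tested.

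**Figure D4:**
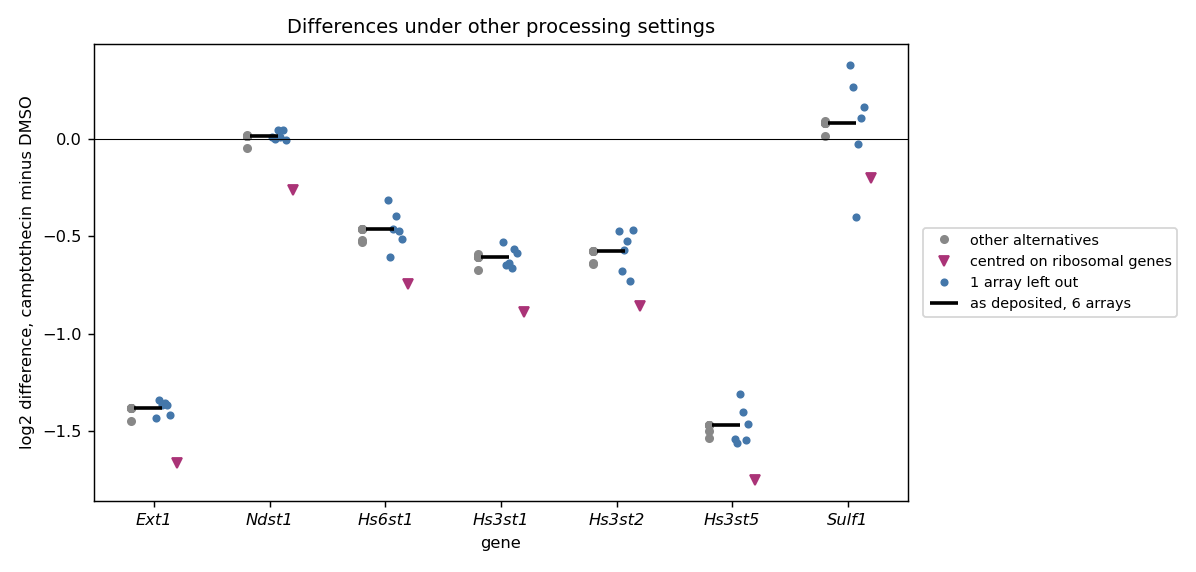
Log2 difference, camptothecin minus DMSO, of each of the 7 genes (horizontal axis) under the settings tried: black bars are the deposited values on 6 arrays, blue points have 1 array left out, purple triangles have arrays centred on ribosomal protein genes, and grey points are the other alternatives. Ext1, Hs3st1, Hs3st2, Hs3st5 and Hs6st1 stay below 0 throughout, while Ndst1 and Sulf1 lie on either side of 0.

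Across settings, Ext1, Hs3st1, Hs3st2, Hs3st5 and Hs6st1 kept a difference below 0 in all 13 alternatives run for them. The range was -1.66 to -1.34 for Ext1, -1.75 to -1.31 for Hs3st5, -0.89 to -0.53 for Hs3st1, -0.86 to -0.47 for Hs3st2 and -0.74 to -0.31 for Hs6st1. Sulf1 ranged from -0.40 to 0.38 and Ndst1 from -0.26 to 0.05.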

How the data were processed

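The deposited values are log2 expression values, 1 per transcript cluster and array, from Affymetrix Rat Gene 1.0 ST arrays hybridised with biotinylated cDNA, per the labels' protocols. RMA and the oligo package are listed, without versions, in the submitters' processing notes. For the probe annotation and the array's build, nothing is given in the sources used here. RMA summarises probes and equalises array distributions, so a shift shared by most genes would be reduced.

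Camptothecin was compared with DMSO on the values as deposited, in a two-sided limma fit (limma 3.58.1, R 4.3.3) over all 29214 clusters, with Benjamini-Hochberg adjustment and a threshold of 0.05. SE is limma's. A gene with several clusters was represented by that with the highest mean. Dim means a mean below the median of all cluster means. Spans and promoters come from RefSeq for GRCr8, matched by gene identifier or symbol, and 14480 of 14506 genes had a span. The fit was tested on simulated data.

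The 10 genes and the lists were chosen with earlier results of these data known. Text names all 7 measured genes, Top1, and up to 4 called genes per list with the largest change (up to 8 for chain enzymes and core proteins), or the largest where none was called. Genes named outside this rule, among them Xylt2 and the uncalled cell type markers, were picked after their values were seen. Alternatives were quantile normalization again, 2 centrings, leaving out dim clusters, the replicate block, trend and robust, the mean over clusters, a threshold of 0.01, and leaving out each array. The number of arrays limits the precision.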

Additional observations from a re-analysis of the deposited data

How the results depend on the processing

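Other pathway genes called higher numbered 4 in the limma fit, 1 with arrays centred on the median, 0 with ribosomal centring (1 at an unadjusted p under 0.05), 0 at a threshold of 0.01 (9 at an unadjusted p under 0.05) and 1 to 5 with 1 array left out. Those called lower numbered 4, and 17 with ribosomal centring. Of the 7 genes, 3 were called lower, 5 with quantile normalization again, without dim clusters or with trend and robust, 6 with ribosomal centring, and 3 to 4 when an array was dropped. Their median difference was -0.57, -0.86 under ribosomal centring, and -0.65 to -0.47 when an array was dropped. Clusters called higher numbered 2937, 1627 with median centring, 562 with ribosomal centring, 749 at a threshold of 0.01 and 1187 to 2327 with 1 array left out. Clusters called lower numbered 2311, 9513 with ribosomal centring and 1379 at 0.01. With ribosomal centring Sdc1 turned to -0.037 and Gusb to -0.055. Fewer clusters are tested without dim ones, and a stricter threshold calls fewer. Ribosomal centring lowers every difference, since the ribosomal protein genes were themselves higher with camptothecin as deposited (median difference 0.25). For the other settings the cause was not tested.

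With the replicate number as a block, 1 other pathway gene was called higher, and 1677 clusters. Deviations of arrays with the same number correlated at -0.084, 0.022 and 0.085, so the numbers were not taken as pairs. Signal over background could not be set for single probes, and dim clusters carry the least certain values.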
